A study of Mus musculus with 4 samples.

Results

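The genes described here encode the proteasome and the machinery that loads its peptides onto class I histocompatibility molecules. They were chosen by symbol: every symbol that starts with Psm, a letter from a to g and a digit, together with Pomp, B2m, Tap1, Tap2, Tapbp, Tapbpl, Erap1 and Nlrc5. The rule found 57 of the 23259 symbols with a value. It took in Psmc3ip, which encodes a meiotic recombination factor and no proteasome subunit.

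RNA was sequenced from macrophages grown from the bone marrow of C57BL/6 mice aged 7 weeks and given IL-4, which drives alternative activation, for 24 h. All 4 libraries share that strain, age and exposure. There were 2 libraries labelled Sema6D-/-, a knockout of the membrane semaphorin Sema6D, and 2 labelled wild type, given below as replicates 1 and 2 of each label. The labels name no mutant allele and do not say that libraries of a label were made from different animals. The spread behind the p-values may therefore be technical. The sample titles begin with W under the label Sema6D-/- and with K under the label wild type, so every direction below holds for the libraries as labelled, and an exchange of labels would reverse it.

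The proteasome is the protease of the cytosol and nucleus that degrades ubiquitin-tagged proteins. Its core particle, called 20S, is a barrel of alpha and beta rings with catalytic sites in Psmb5, Psmb6 and Psmb7, and the 19S cap binds, unfolds and feeds in the substrate. Interferons induce replacement catalytic subunits, Psmb8, Psmb9 and Psmb10, which form the immunoproteasome, and also induce the transporter of its peptides, Tap1 with Tap2. Loaded with a peptide, a class I heavy chain and B2m are displayed to CD8+ T cells.

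Values are FPKM, fragment counts divided by transcript length and library depth, so levels can be compared between genes per length. This need not hold for very short features, because the length used for them is not given. The FPKM summed to 563890 and 552107 in the libraries labelled Sema6D-/- and to 527755 and 538679 in those labelled wild type. Low values put the depth at roughly 8100000 and 8200000 fragments in the libraries labelled Sema6D-/- and 8800000 and 8900000 in those labelled wild type. Each is a median within a fixed window of low values, which bounds it, so depths and the fragment counts below are rough guides. The targeted gene did not separate the labels, with Sema6d at 0.106 and 0.315 FPKM in the libraries labelled Sema6D-/- and 0.166 and 0.389 in those labelled wild type. All 7 macrophage markers were detected, 1 higher and 2 lower under the label Sema6D-/-, with a summed level of 2782 to 2825 FPKM under the label Sema6D-/- and 2467 to 2622 under wild type. Each B cell, T cell and erythroid marker was under 1 FPKM in all 4 libraries. Mast cell and basophil markers summed to 10.7 and 5.95 FPKM under the label Sema6D-/- and 1.74 and 1.23 under wild type, with 2 of 4 higher. Neutrophil markers differed between labels, with 6 of 10 tested higher and sums of 779.6 and 640.2 FPKM under the label Sema6D-/- against 228.8 and 220.4 under wild type. The part of these cells in the results below was not tested. In bulk RNA, fewer cells of a type and less RNA per cell cannot be told apart.

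Differences were tested with limma on log2(FPKM + 1) over the 10115 genes whose mean reached 1 FPKM, as 56 of the 57 members did, and were called at a Benjamini-Hochberg adjusted p under 0.05. Adjusted p-values below are from that fit unless a left-out library is named. Under the label Sema6D-/-, 1 member was higher and 6 were lower, 1.79% and 10.7% of those tested, against 4.8% and 4.91% of all genes. Calls in either direction made up 12.5% of the members tested and 9.72% of all genes. Psmb5 was the member that rose. Psmb8, Psmb9, Tap1, Tapbp, Nlrc5 and Psmg1 fell. The members' median difference was -0.03 on the log2 scale, against 0.00 over all genes tested.

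**Figure D1:**
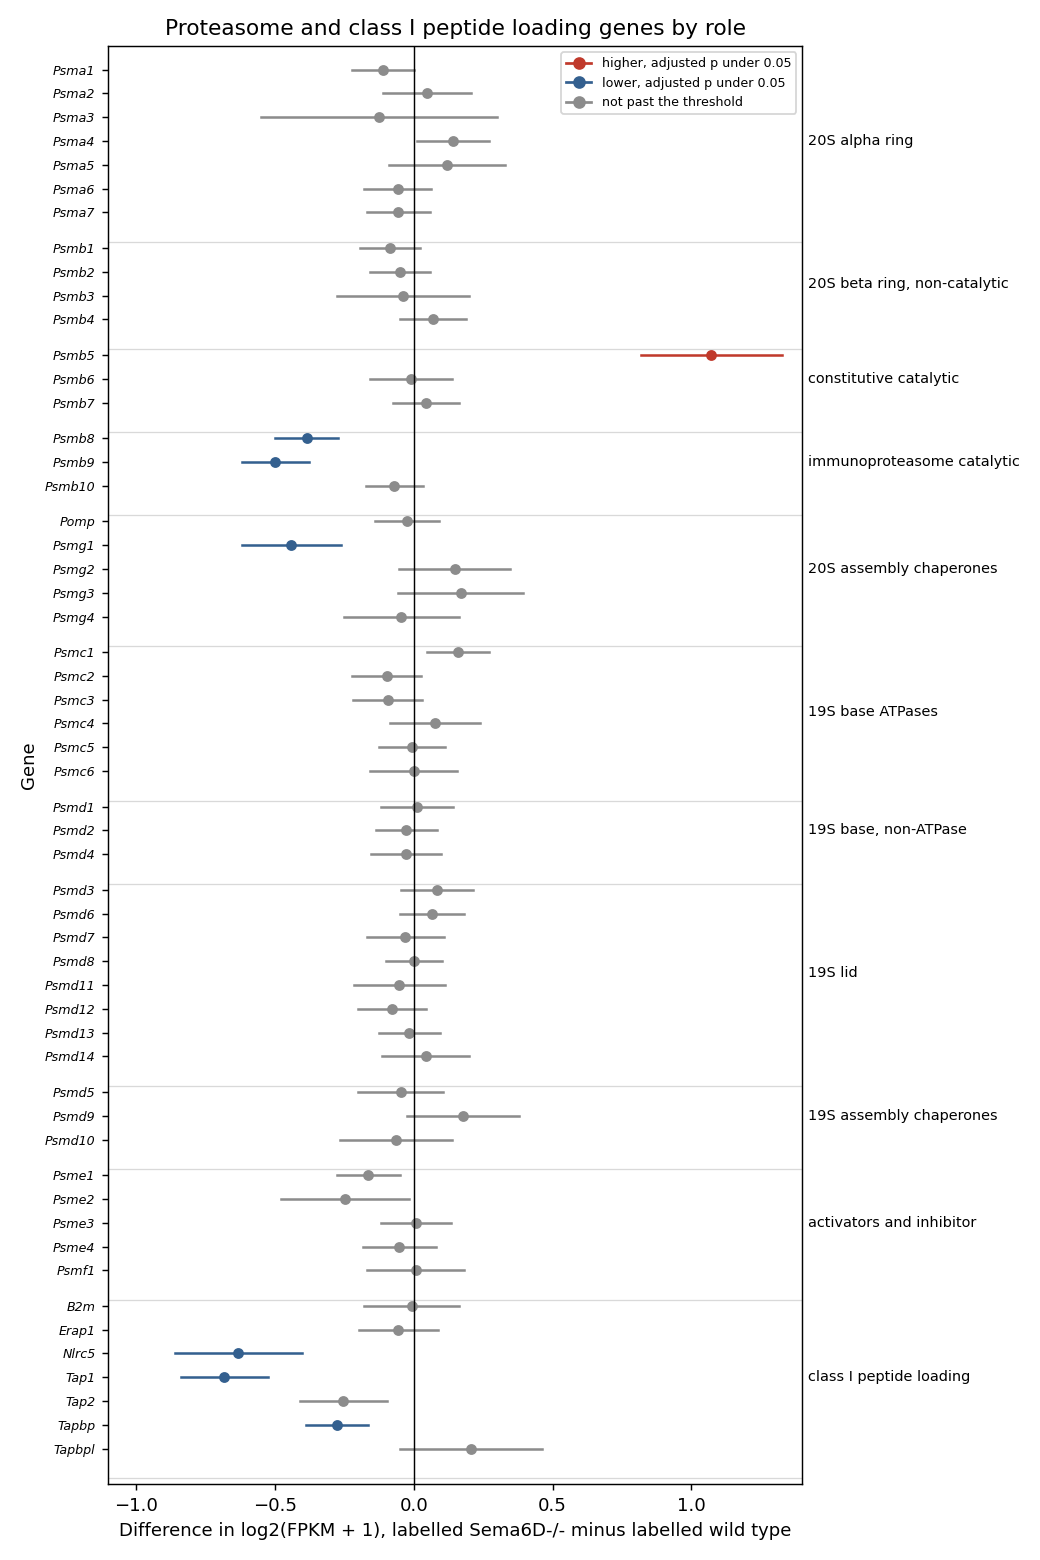
Difference in log2(FPKM + 1), libraries labelled Sema6D-/- minus libraries labelled wild type, for the members by role, with the 95% interval from limma; Psma8 and Psmc3ip, low in every library, are not drawn. Psmb5 lies alone to the right at 1.07, Tap1 and Nlrc5 lie farthest left at -0.68 and -0.63, and the 28 standard core and cap subunits lie between -0.13 and 0.16.

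The standard subunits of the core and cap showed little difference. These are Psma1 to Psma7 of the alpha ring, the non-catalytic Psmb1 to Psmb4 of the beta ring, the 6 Psmc ATPases that unfold substrates, and 11 Psmd subunits of the cap's base and lid. None of the 28 passed the threshold in limma, and 2 had an unadjusted p under 0.05, Psmc1 and Psma4, against 25.1% of all genes tested. Their differences ran from -0.13 for Psma3 to 0.16 for Psmc1, with a median size of 0.06 on the log2 scale, against 0.11 over all genes tested. The labels did not overlap for 13 of them, with 5 higher and 8 lower under the label Sema6D-/-, while 28.8% and 27.4% of all genes did so in those directions. Over all members the counts were 10 higher and 20 lower.

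Psmd14, the lid's deubiquitinase, was at 73.8 and 75.2 FPKM in the libraries labelled Sema6D-/- and 68.6 and 76.2 in those labelled wild type, and the labels overlapped. Psmd4, a ubiquitin receptor of the base, was at 86.6 and 89.5 FPKM under the label Sema6D-/- and 92.1 and 87.3 under wild type, again with overlap. Psmc1 was at 70.7 and 72.5 FPKM under the label Sema6D-/- and 64.3 and 63.7 under wild type (adjusted p = 0.0961). The labels did not overlap, and the interval of its difference was 0.05 to 0.27 on the log2 scale. Psma4 was at 109 and 116 FPKM under the label Sema6D-/- and 100.1 and 104 under wild type (adjusted p = 0.169).

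Levels within the complex were uneven, although each core ring holds its subunits in equal number. In the alpha ring, 5 genes averaged between 107 and 174 FPKM over the 4 libraries, while Psma5 averaged 22.9 and Psma3 10.1. Among the non-catalytic beta genes, Psmb3 averaged 40.04 FPKM, below the other 3. The lid ran from Psmd11 at 20.2 to Psmd8 at 230.1 FPKM. In GENCODE, 9 members have a near-identical copy elsewhere, a pseudogene or paralogue that matches at least 200 bases of transcript at 95% identity or more, and Psma3, Psma5, Psmb3 and Psmd11 are among them. None of those copies is listed in the files under its GENCODE name, and how reads with several positions were counted is not given, so the levels of these genes are uncertain. The same holds for Psma4, Psmb5, Psmc1, Psmd2 and Psme2. Psmc1, at 67.8 FPKM, was the lowest of the Psmc ATPase genes, and Psmb5, at 67.2, the lowest of the constitutive catalytic genes. Tapbpl met the same limits, with stretches of 200 to 202 bases in Mrps26, Ppip5k1, Rab33b and Slfn5. These were not counted as copies, and how their reads were shared is not given. Psmd2 averaged 86.0 FPKM, between the other non-ATPase genes of the base, so a copy did not always go with a low value, and Psma4, at 107 FPKM, was below the 4 alpha genes without a copy.

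**Figure D2:**
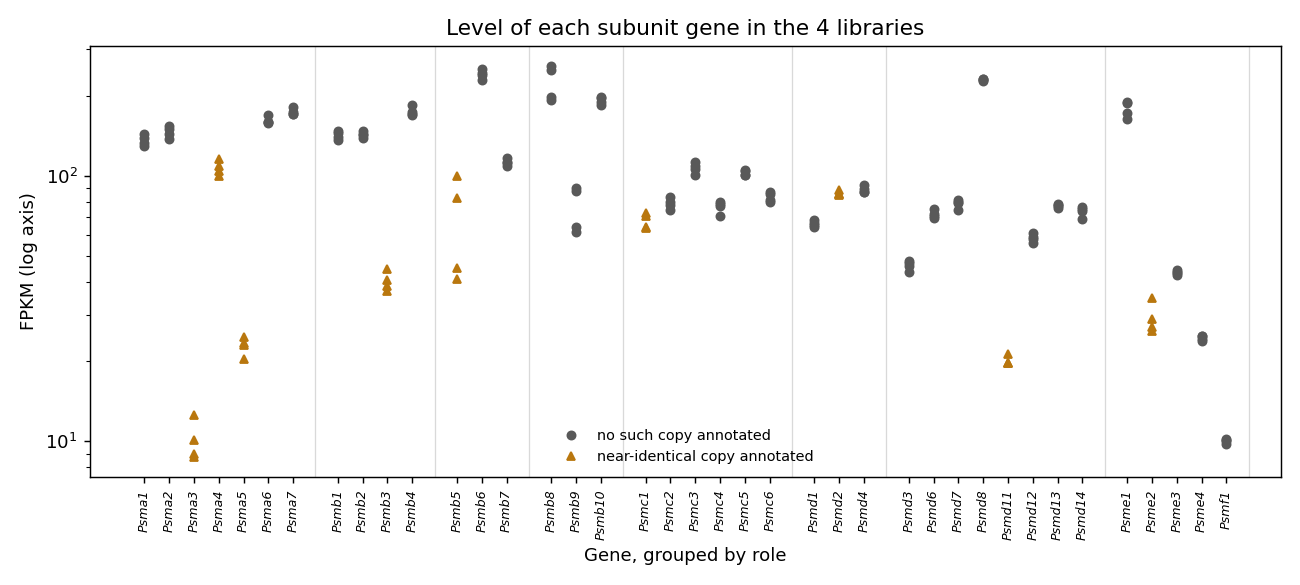
FPKM on a log axis of each core, cap and activator gene, with 1 point for each of the 4 libraries and triangles for genes with a near-identical annotated copy. Psma3, Psma5, Psmb3, Psmd11, Psmc1 and Psmb5 sit below the other genes of their group and are triangles. Psmd2, also a triangle, lies among its neighbours. The points of Psmb5, Psmb8 and Psmb9 fall into separate pairs.

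Among the constitutive catalytic genes, only Psmb5 passed the test. Psmb5, the chymotrypsin-like site, was at 82.9 and 100.2 FPKM in the libraries labelled Sema6D-/- and 40.8 and 44.9 in those labelled wild type. Both values under the label Sema6D-/- exceeded both under wild type, at about 606 and 744 fragments against 322 and 361, with a ratio of means of 2.14 (difference 1.07 ± 0.10 (SE), adjusted p = 0.00545). The call held under all 13 alternative settings, with differences of 0.94 to 1.21. Psmb6, the caspase-like site, was at 253 and 229 FPKM under the label Sema6D-/- and 239.9 and 244 under wild type, with overlap (95% interval of the difference -0.16 to 0.14). Psmb7, the trypsin-like site, was at 112 and 117 FPKM under the label Sema6D-/- and 112 and 109 under wild type, again with overlap (interval -0.07 to 0.16).

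The Psmb5 locus holds another listed feature, whose value moved with the label. Mir686, a microRNA hairpin of 109 bases at chr14:54616677-54616785 on the minus strand (mm10), lies wholly inside coding exon 2 of Psmb5, chr14:54616515-54616821, on the same strand. It was listed at 4823 and 1996 FPKM in the libraries labelled Sema6D-/- and at 0 in both labelled wild type. The length used to scale so short a feature is not given, so the number of fragments behind these values is unknown. The values alone do not show an abundant microRNA. The hairpin and the mature microRNA are shown because fragments of Psmb5 messenger RNA from this stretch carry the same bases. The sequences are from RefSeq (GRCm38.p6), with the mature part in capitals in the hairpin and the seed, bases 2 to 8, in capitals in the mature form.
Mir686 hairpin: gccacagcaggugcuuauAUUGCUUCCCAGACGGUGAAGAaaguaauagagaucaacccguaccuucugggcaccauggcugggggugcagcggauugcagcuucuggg
mmu-miR-686: aUUGCUUCccagacggugaaga
Psmb5 also has a processed pseudogene, Gm3375, that matches 796 bases at 98.9% identity. How fragments were shared between Psmb5, Mir686 and such a copy is not given, and the part of either in the Psmb5 difference was not tested.

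Of the immunoproteasome genes, Psmb9 and Psmb8 fell and Psmb10 did not pass the test. Psmb9, which takes the place of Psmb6, was at 64.0 and 61.2 FPKM in the libraries labelled Sema6D-/- and 89.8 and 87.8 in those labelled wild type. Its level under the label Sema6D-/- was 0.705 of that under wild type (difference -0.50 ± 0.05 (SE), adjusted p = 0.00556). Psmb8, which takes the place of Psmb5, was at 192 and 198 FPKM under the label Sema6D-/- and 260.3 and 251 under wild type, or 0.765 of it (difference -0.38 ± 0.04 (SE), adjusted p = 0.00963). The labels did not overlap for either gene. Psmb10, which takes the place of Psmb7, was at 190.1 and 186 FPKM under the label Sema6D-/- and 196 and 198 under wild type (interval -0.17 to 0.03, adjusted p = 0.377). Its interval does not overlap those of Psmb8, -0.50 to -0.27, and Psmb9, -0.62 to -0.38, although the difference between the genes was not tested.

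**Figure D3:**
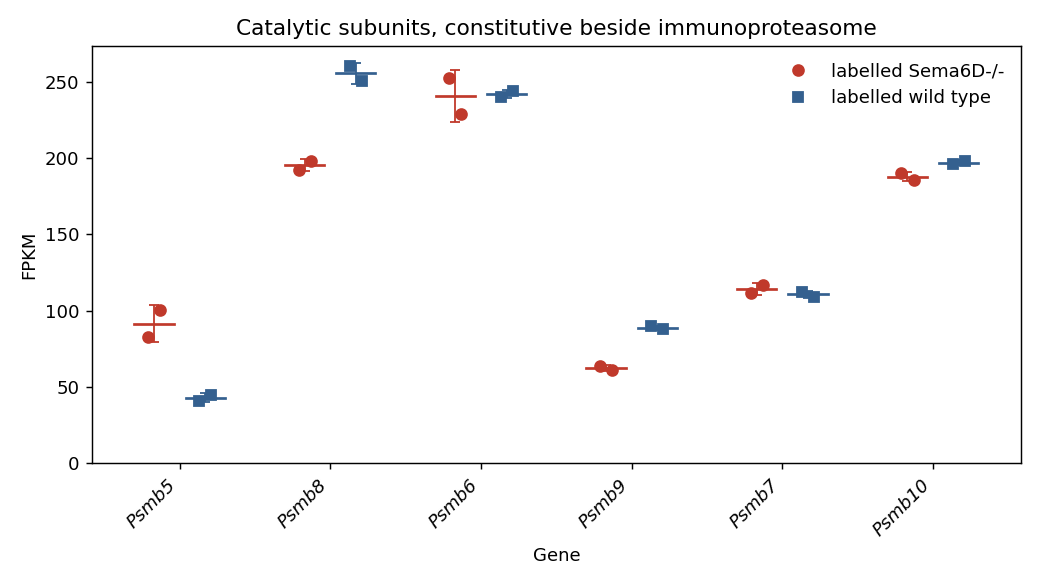
FPKM of each constitutive catalytic subunit beside the immunoproteasome subunit that replaces it, with 2 libraries per label as points, the mean as a line and the SD as an error bar. Psmb5 is higher and Psmb8 and Psmb9 are lower in the libraries labelled Sema6D-/-, and Psmb6, Psmb7 and Psmb10 differ little.

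Set against each other within a library, the pairs gave lower immunoproteasome shares under the label Sema6D-/-. Psmb8 made up 69.9% and 66.4% of the summed FPKM of Psmb8 and Psmb5 in the libraries labelled Sema6D-/-, against 86.4% and 84.8% in those labelled wild type. For Psmb9 with Psmb6 the shares were 20.2% and 21.1% under the label Sema6D-/- against 27.2% and 26.5% under wild type. For Psmb10 with Psmb7 they were close, 63.0% and 61.4% under the label Sema6D-/- against 63.6% and 64.5% under wild type. Both libraries labelled Sema6D-/- lay below both labelled wild type in each of the 3 pairs. The two-sided exact permutation test on each log2 ratio gave p = 0.333, also after adjustment over the 3 pairs, which is the smallest p that 2 libraries against 2 allow. The mean log2(FPKM + 1) of the 3 immunoproteasome genes minus that of the 3 constitutive genes was 0.00 and -0.08 under the label Sema6D-/- and 0.68 and 0.61 under wild type, a difference of -0.69 that has no test. Without the pair Psmb8 and Psmb5, a choice made after the data were seen, it was -0.30.

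**Figure D4:**
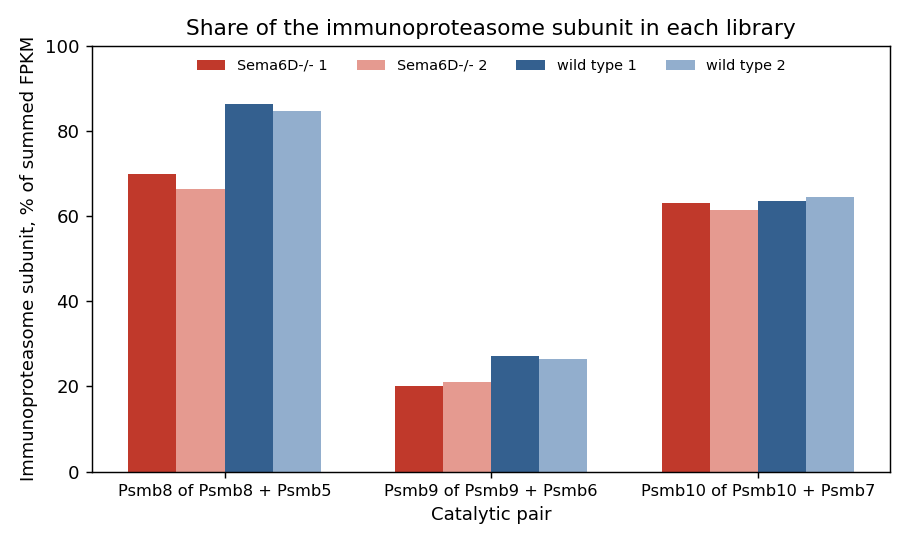
Share of the immunoproteasome subunit in the summed FPKM of each catalytic pair, 1 bar per library. The Psmb8 share is 69.9% and 66.4% in the libraries labelled Sema6D-/- against 86.4% and 84.8% in those labelled wild type, the Psmb9 share is lower too, and the Psmb10 shares lie within 61.4% to 64.5%.

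Genes of peptide transport and loading fell in part. Tap1, an arm of the transporter that carries peptides into the endoplasmic reticulum, was at 28.1 and 30.03 FPKM in the libraries labelled Sema6D-/- and 48.8 and 45.7 in those labelled wild type. Its level was 0.615 of that under wild type (difference -0.68 ± 0.06 (SE), adjusted p = 0.00497), the smallest adjusted p among the members. Tap2, the other arm, was at 40.05 and 40.6 FPKM under the label Sema6D-/- and 50.7 and 46.0 under wild type. The labels did not overlap, yet Tap2 did not pass (adjusted p = 0.0685, interval -0.41 to -0.10).

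Tapbp, tapasin, which bridges the transporter to empty class I molecules, was at 192 and 190.3 FPKM under the label Sema6D-/- and 226 and 237 under wild type (0.825 of it, adjusted p = 0.023). Tapbpl, the tapasin-related editor of peptides, was at 15.9 and 15.8 FPKM under the label Sema6D-/- and 15.0 and 12.3 under wild type (adjusted p = 0.287). It was the loading gene with both libraries labelled Sema6D-/- above both labelled wild type. Nlrc5, the transactivator of class I genes, was at 5.70 and 6.55 FPKM under the label Sema6D-/- and 9.81 and 10.2 under wild type, or 0.611 of it (adjusted p = 0.0167).

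B2m and Erap1 differed little. B2m, the invariant light chain of class I molecules, was the most abundant member, at 7130.1 and 7799 FPKM under the label Sema6D-/- and 7509 and 7479 under wild type. The labels overlapped, and the interval of its difference was -0.18 to 0.16. Erap1, the peptidase that trims peptides in the endoplasmic reticulum, was at 39.6 and 36.8 FPKM under the label Sema6D-/- and 39.9 and 39.4 under wild type, with overlap (interval -0.20 to 0.09).

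**Figure D5:**
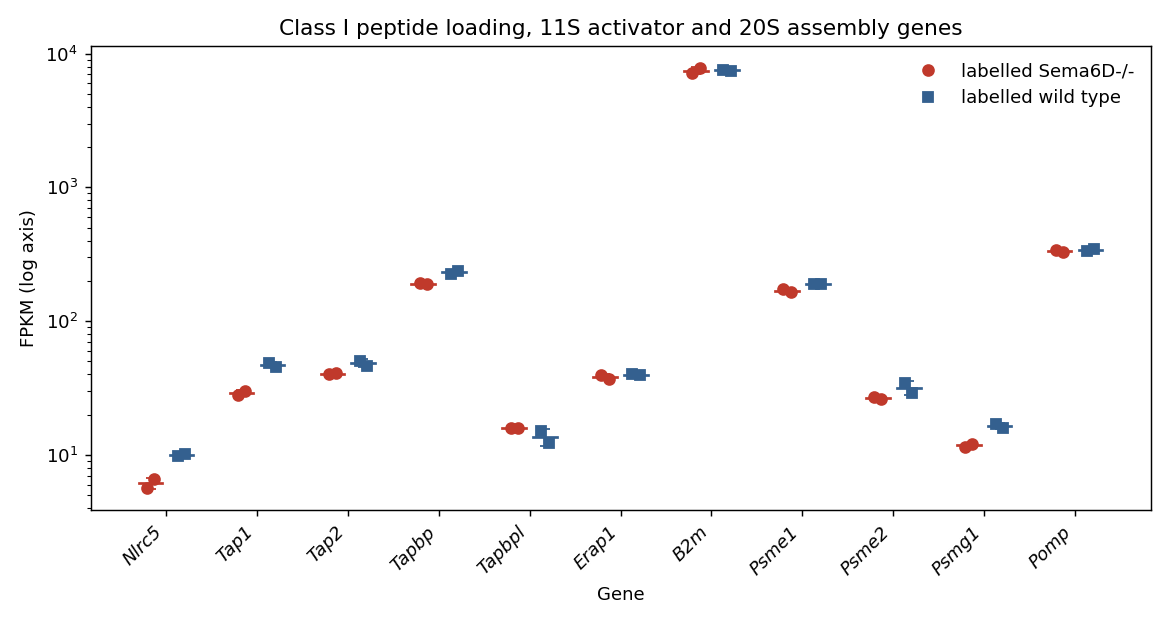
FPKM on a log axis of the peptide loading genes, the activator genes Psme1 and Psme2 and the assembly genes Psmg1 and Pomp, with 2 libraries per label as points, the mean as a line and the SD as an error bar. Nlrc5, Tap1, Tapbp and Psmg1 are lower in the libraries labelled Sema6D-/-, and B2m, Erap1 and Pomp overlap between labels.

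Of the 6 members that fell, Psmb8, Psmb9, Tap1 and Tapbp lie on chromosome 17, Nlrc5 on chromosome 8 and Psmg1 on chromosome 16. Psmb8 (chr17:34198195-34201454), Psmb9 (chr17:34182030-34187330), Tap1 (chr17:34187556-34197225) and Tap2 (chr17:34204479-34216321) are neighbours in the class II region of the major histocompatibility complex, and Tapbp (chr17:33919478-33929290) lies near them. Tap1 and Psmb9 are transcribed away from each other, with annotated starts 226 bases apart. Their RefSeq promoter windows, 250 bases before to 50 after each start, overlap by 275 bases. In GENCODE their exons on opposite strands share 212 bases. The library kit keeps strand, but the strand setting of the quantification is not given, so reads of Tap1 and Psmb9 in that stretch may not have been told apart. Opposite-strand exons of other genes also cover 498 bases of Psmb8 (Gm20496), 533 of Tap2 (Gm15821) and 904 of Tapbp (Gm19412). Members that were not called have such overlaps too. Examples are Psmb7, with 405 bases shared with Nek6 at 88.9 to 103.7 FPKM, and Erap1, with 834 shared with Cast at 46.5 to 53.7 FPKM. Zbtb22, at 17.5 to 19.9 FPKM, shares 149 exon bases with Tapbp on the same strand. The part of these overlaps in the differences was not tested.

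Promoter windows were found in RefSeq for 46 of the 57 members. The window of Tap1, which also covers most of that of Psmb9, is shown with that of Psmb8, which fell too, and that of Psmb5, which rose. Capitals mark a GC box (GGGCGG on either strand) in Tap1, a STAT-like element (TTCNNNGAA) in Psmb8 and the core of an antioxidant response element (TGACNNNGC on either strand), the kind of site used by the proteasome gene activator Nfe2l1, in Psmb5.
Tap1 and Psmb9, chr17:34187306-34187605, plus strand: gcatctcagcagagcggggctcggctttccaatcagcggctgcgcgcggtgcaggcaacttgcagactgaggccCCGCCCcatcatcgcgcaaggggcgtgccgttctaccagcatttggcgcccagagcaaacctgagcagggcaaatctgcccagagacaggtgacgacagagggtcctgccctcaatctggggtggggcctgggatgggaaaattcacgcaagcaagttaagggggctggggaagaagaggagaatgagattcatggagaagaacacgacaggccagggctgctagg
Psmb8, chr17:34197945-34198244, plus strand: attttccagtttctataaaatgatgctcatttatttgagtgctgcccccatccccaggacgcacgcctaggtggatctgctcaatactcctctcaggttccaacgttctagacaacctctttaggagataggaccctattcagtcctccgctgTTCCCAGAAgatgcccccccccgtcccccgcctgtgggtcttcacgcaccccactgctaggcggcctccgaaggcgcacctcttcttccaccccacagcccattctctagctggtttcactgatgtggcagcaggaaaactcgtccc
Psmb5, chr14:54617946-54618245, minus strand: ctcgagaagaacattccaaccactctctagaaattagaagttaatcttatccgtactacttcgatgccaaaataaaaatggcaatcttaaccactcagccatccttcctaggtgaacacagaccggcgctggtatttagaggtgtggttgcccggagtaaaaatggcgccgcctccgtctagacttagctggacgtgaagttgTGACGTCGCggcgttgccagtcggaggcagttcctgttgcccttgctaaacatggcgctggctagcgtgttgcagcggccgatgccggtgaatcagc
The GC box begins at -176 from the start of Tap1 and at -55 from the start of Psmb9, the element of Psmb8 at -97 and that of Psmb5 at -47. Of 32851 promoter windows of the same length, 35.7% hold GGGCGG, 8.3% TTCNNNGAA, 12.4% TGACNNNGC and 3.44% a core of the interferon-stimulated response element, all searched on both strands. Among the 46 members these were found in 27, 3, 6 and 7. The antioxidant core was found in Psmb5, Psmb6, Psmc6, Psmd12, Psmd9 and Psme4, of which only Psmb5 was called. That is 13% of the members with a window, near the 12.4% of all windows. The interferon-stimulated core was found in B2m, Erap1, Psmb3, Psmd4, Psmd9, Psme1 and Psmg4, and not in the windows of Tap1, Psmb9, Psmb8 or Tapbp. A match here is a match of letters only.

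None of the 5 activator and inhibitor genes passed in limma. An unadjusted p under 0.05 was found for 2, Psme1 and Psme2, against 25.1% of all genes tested. Psme1, which forms the interferon-inducible 11S cap with Psme2, was at 173 and 164 FPKM in the libraries labelled Sema6D-/- and 189 and 189 in those labelled wild type (adjusted p = 0.095, interval -0.28 to -0.05). Psme2 was at 27.1 and 26.1 FPKM under the label Sema6D-/- and 34.7 and 29.03 under wild type (adjusted p = 0.176, interval -0.48 to -0.02). Psme2 has a paralogue, Psme2b, that matches 794 bases at 99.4% identity, so its level is uncertain. Psme3 and Psme4, which encode other activators, and Psmf1, an inhibitor of the core, had differences of 0.01, -0.05 and 0.01 on the log2 scale.

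Assembly genes showed 1 call. Psmg1, a chaperone that helps to build the alpha ring, was at 11.5 and 12.2 FPKM under the label Sema6D-/- and 16.96 and 15.8 under wild type, or 0.721 of it (difference -0.44 ± 0.07 (SE), adjusted p = 0.0226). Psmg2, its partner in a dimer, was at 14.1 and 14.5 FPKM under the label Sema6D-/- and 13.6 and 12.02 under wild type (adjusted p = 0.322), so the partners' levels lay on opposite sides. Pomp, the maturation factor that favours assembly of the immunoproteasome, was at 341 and 327 FPKM under the label Sema6D-/- and 333 and 346 under wild type, with overlap. Psmg3 and Psmg4 of the other assembly dimer, and the cap chaperones Psmd5, Psmd9 and Psmd10, ran from -0.06 to 0.18 on the log2 scale and did not pass.

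Members restricted to other tissues were low. Psmb11, the catalytic subunit of the thymus, was listed at 0 in all 4 libraries, where a 0 can be a failed estimate. Psma8, the alpha subunit of testis, was at 0.815 and 1.43 FPKM under the label Sema6D-/- and 1.08 and 1.66 under wild type, about 11 and 20 fragments against 16 and 25. Psmc3ip was at 1.30 and 0.695 FPKM under the label Sema6D-/- and 2.11 and 2.19 under wild type (adjusted p = 0.0869). At the rough depth given above this is about 14 and 7 fragments against 24 and 25. In GENCODE its exons share 385 bases on opposite strands with Mlx, at 29.9 to 31.3 FPKM over the 4 libraries.

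Several calls were lost with 1 library left out, where a label keeps only 1 library. Calls over all genes fell in those fits too, so a lost call does not single out a library. Tap1 and Psmb9 lost theirs without Sema6D-/- replicate 1 (adjusted p = 0.0558 and 0.0508), and Psmb8 lost its call without either library labelled Sema6D-/- (highest adjusted p = 0.0949). Tapbp lost its call without either of these or without wild type replicate 2 (highest 0.148), and Nlrc5 and Psmg1 lost theirs without any 1 library (highest 0.118 and 0.165). Differences in these fits stayed between -0.73 and -0.64 for Tap1, -0.53 and -0.47 for Psmb9, and -0.41 and -0.36 for Psmb8. No call of a member changed sign.

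The wider pathway was described from lists of other genes, whose counts at an unadjusted p under 0.05 stand beside 25.1% of all genes. Of 16 accessory and shuttle factors, such as the deubiquitinases Usp14 and Uchl5 and the shuttle Rad23b, 0 passed in limma and 3 had an unadjusted p under 0.05. Of 7 genes for the transcription of proteasome genes, 0 passed and 2 had an unadjusted p under 0.05. Nfe2l1, the activator in the bounce-back response, was at 57.7 and 55.5 FPKM under the label Sema6D-/- and 49.9 and 47.7 under wild type (adjusted p = 0.0679). Ubiquitin supply had 0 of 6 called and 0 with an unadjusted p under 0.05, and class I folding genes such as Calr and Canx had 0 of 7 and 2.

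Class I heavy chains and signalling genes upstream of the immunoproteasome did include calls. Of 7 heavy chain genes 4 were lower, against 4.91% of all genes, with median difference -0.49. In this list 4 genes had an unadjusted p under 0.05. H2-K1, a classical heavy chain, was at 1307 and 1247 FPKM under the label Sema6D-/- and 1780.3 and 1804 under wild type (adjusted p = 0.00644). H2-Q4, H2-Q6 and H2-Q7 were lower too, at 0.645, 0.239 and 0.265 of their wild type level, and their levels are uncertain because the family's members are alike. H2-D1 had a difference of 0.01 (adjusted p = 0.963).

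Of 13 inducers of class I and immunoproteasome genes, 2 were higher and 5 lower, against 4.8% and 4.91% of all genes. Their median difference was -0.04, and 7 had an unadjusted p under 0.05. Stat2, which carries the type I interferon signal to the nucleus, was at 22.4 and 29.3 FPKM under the label Sema6D-/- and 50.6 and 51.7 under wild type (adjusted p = 0.0119). Irf9, the DNA-binding partner of Stat2, the kinase gene Jak2 and the interferon gamma receptor gene Ifngr2 were also lower (adjusted p = 0.0494, 0.0244 and 0.0404). Irf1, an activator of immunoproteasome and Tap1 promoters, was higher, at 96.9 and 92.9 FPKM under the label Sema6D-/- and 79.7 and 76.4 under wild type (adjusted p = 0.0284). Irf8, a factor of the macrophage lineage, was higher as well, at 77.3 and 77.2 FPKM under the label Sema6D-/- and 65.6 and 67.9 under wild type (adjusted p = 0.0496). Stat2, H2-Q6 and H2-Q7 passed with any 1 library left out (highest adjusted p = 0.0448, 0.0136 and 0.0231). The other calls of both lists were each lost without at least 1 library, with adjusted p up to 0.226, for Irf8. Of the dendritic cell markers, Itgax was lower, at 304 and 319.9 FPKM under the label Sema6D-/- and 402 and 407 under wild type (adjusted p = 0.011), while Batf3 and Ccr7, the other markers tested, had differences of -0.005 and 0.17 and did not pass. The other 5 of the 8 were under 1 FPKM in all 4 libraries, and the median difference of the 3 tested was -0.005. The sum of the list was 344 and 366 FPKM under the label Sema6D-/- and 444 and 453 under wild type, most of it Itgax, and its part in the lower loading genes was not tested.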

How the data were processed

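The authors deposited FPKM for each library; tools in the submitters' processing notes are Cuffnorm 2.2.1, TopHat2 2.0.13, SAMtools 0.1.19 and Bowtie2 2.2.3, and the build is mm10. Total RNA was made into strand-specific libraries, per the labels' protocols. The annotation, strand setting and handling of multiply mapped reads are not stated in any label or header. Of 23284 symbols, 25 had no value. Groups follow the genotype label. Tests used limma 3.58.1 in R 4.3.3 (lmFit, eBayes with trend, two-sided) on log2(FPKM + 1), which understates changes of low genes. In data simulated with normal errors from the fitted variances, 12 of 50 log2 changes of 0.25 and 42 of 50 of 0.5 were recovered. The changes were placed in more highly expressed genes. Differences near 0.25 could thus go uncalled, and such data cannot test the assumptions of the fit. The members and lists were chosen with earlier results of these data known. Named were the catalytic, loading, 11S and maturation genes, other members past the threshold, members under 1 FPKM, and up to 6 called genes per list. Other names serve as examples and were chosen after their values were seen. Depth was estimated from the median of FPKM times length within a fixed low window, with GENCODE M21 lengths of genes with 1 transcript. Copies were sought with blastn among GENCODE transcripts. Coordinates are from GRCm38, which mm10 names. Alternatives were other pseudocounts (0.1 or 5), other filters (none, or a mean of 5 FPKM), 2 other scalings, 2 other variance settings, a replicate block and leaving out each library.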

Additional observations from a re-analysis of the deposited data

Results flagged for a closer look

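Mir686, the hairpin inside exon 2 of Psmb5, was outside the members and had a signal in libraries of 1 label. It was at 4823 FPKM in Sema6D-/- replicate 1 and 1996 in Sema6D-/- replicate 2, against 0 in both libraries labelled wild type. How many fragments lie behind these values is unknown, because the length used for so short a feature is not given. A listed 0 need not mean absence. Gapdh, which every cell uses, had 0 and 0.104 FPKM in the libraries labelled Sema6D-/- and 0 in both labelled wild type.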

How the results depend on the processing

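The count of members called higher was 1 under every alternative run. The count called lower, 6, was 3 without a filter, where more genes are tested, and ranged from 0 to 4 with 1 library left out, where fewer samples enter. It was 5 or 6 under the other scalings, pseudocounts and variance settings. With a replicate block it was 4 lower and 1 higher, and Tapbp and Psmg1 lost their calls. The deviations of same-numbered libraries correlated at -0.018 across genes. With 1 deviation per label, this cannot decide whether the numbers pair the libraries. Tapbp, Nlrc5 and Psmg1 also lost their calls without a filter, and Tapbp with eBayes without trend. With 1 library left out, 21 members took both signs, with differences from -0.374 to 0.118, and 0 of them were among the limma calls. These included Psmb6 (-0.080 to 0.062), Pomp (-0.052 to 0.005), B2m (-0.072 to 0.057) and Psma8 (-0.374 to 0.047). The immunoproteasome minus constitutive difference, -0.69, ran from -0.73 to -0.64 with 1 library left out and was -0.30 without the pair Psmb8 and Psmb5. Over all genes, calls numbered 486 higher and 497 lower, against 300 and 337 with the replicate block and 261 and 327 with no variance trend; with all genes tested whatever their level they numbered 256 and 248. With 1 library left out they ran from 72 to 276 higher and from 87 to 290 lower. Depth limits Psma8 and Psmc3ip, which by the rough depth rest on about 7 to 25 fragments in a library.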
